A study of Mus musculus with 15 samples.

Results

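The genes described here are those of the WNT pathway: the WNT ligands, their receptors, their secreted inhibitors, the TCF/LEF factors and a fixed set of feedback and target genes. Members were the genes whose symbol is *Wnt*, *Fzd*, *Sfrp* or *Dkk* followed by a number, with 16 further genes given by name. This rule found 53 of the 55536 genes counted: 19 ligands, 10 Frizzled receptors, the co-receptors *Lrp5* and *Lrp6*, 4 *Sfrp* and 4 *Dkk* inhibitors, 4 TCF/LEF factors, the transducers *Ctnnb1* and *Axin1*, and 8 feedback or target genes (*Axin2*, *Sp5*, *Nkd1*, *Notum*, *Rnf43*, *Znrf3*, *Cdx1* and *Cdx2*). They were followed over the induction of mouse primordial germ cell-like cells (PGCLCs) by overexpressed transcription factors, in 15 RNA-seq samples of 5 groups with 3 replicates each. Naive embryonic stem cells (ESCs) were kept in N2B27 with 3 μM CHIR99021, 1 μM PD0325901 and 1000 U/ml LIF, on poly-L-ornithine and laminin. Epiblast-like cells (EpiLCs) had spent 48 h in N2B27 with 20 ng/ml Activin A, 12 ng/ml bFGF and 1% KSR. D2PGCLCs, D4PGCLCs and D6PGCLCs were Stella-eGFP+ cells sorted on day 2, 4 or 6 after EpiLCs had been moved to U-bottom wells in GK15 medium with 2 μg/ml Dox, with no BMP or other cytokine named. All groups, the ESC and EpiLC controls included, carried Dox-inducible transgenes for 4 factors, Prdm1, Prdm14, Tfap2c and Nanog, and none of these is among the 53 genes. The inserts were selected by drug resistance after transposition or lentiviral infection, with the reverse transactivator under a CAG promoter, and how many clones make up the line is not given in the sources used here. CHIR99021, an inhibitor of the kinase GSK3, was named for the ESC medium only, so its removal and the change of cell state cannot be told apart in any comparison with ESCs. No label says whether replicates came from separate cultures, so the p-values measure the spread between these samples, which may be technical.

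WNT proteins are secreted lipid-modified ligands. They bind Frizzled receptors together with LRP5 or LRP6, which stops the destruction complex of AXIN, APC and GSK3 from marking β-catenin (*Ctnnb1*) for degradation. β-Catenin then enters the nucleus and acts with TCF/LEF factors on target genes, several of which encode negative feedback regulators such as *Axin2*, *Notum*, *Nkd1* and *Znrf3*. In naive ESCs, inhibition of GSK3 stabilizes β-catenin and supports self-renewal, and in the embryo WNT3 from the posterior epiblast and visceral endoderm is required for primordial germ cells to form.

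Library totals ran from 22555021 to 42725681 counts, so that 3 counts equal at most 0.133 CPM. Summed levels of the naive and formative marker lists followed the labels of ESCs and EpiLCs. The 5 naive markers summed to 1971 to 2032 CPM in ESCs and 252 to 281 CPM in EpiLCs. In PGCLCs they were well above EpiLCs, at 1147 to 1233 CPM on day 2, 1023 to 1164 CPM on day 4 and 904 to 1003 CPM on day 6. The 4 formative markers summed to 1824 to 1966 CPM in EpiLCs and 135 to 142 CPM in ESCs. The 7 germ cell markers summed to 1050.0 to 1068 CPM in D2PGCLCs and 311 to 339 CPM in EpiLCs. Of these 7, *Tfap2c*, *Prdm1* and *Prdm14* are also transgenes. *Dppa3* (Stella), at a mean of 452 CPM in D2PGCLCs, is the gene of the reporter used for sorting. The germ cell sum is therefore not a separate check of the labels. *Itgb3*, *Nanos3* and *Dnd1*, which are neither transgenes nor the reporter gene, were 34.8, 11.7 and 2.99-fold higher in D2PGCLCs than in EpiLCs, without overlap of samples. *Prdm1* and *Prdm14* were at 1.48 and 0.968 times their EpiLC levels. The 7 fibroblast markers summed to 7.72 to 8.41 CPM in ESCs, 24.0 to 25.1 CPM in EpiLCs and 0.919 to 2.19 CPM in D2PGCLCs. Of these, *Dcn* had 180, 173 and 134 counts in the EpiLC samples and 0 in every ESC sample, and *Lum* was at 0 in every EpiLC sample. Outside the naive culture, the ESCs of the study were maintained on feeder fibroblasts. The 6 endoderm markers summed to 6.87 to 8.21 CPM in D2PGCLCs and 17.4 to 28.4 CPM in D6PGCLCs, with 13, 6 and 4 and 536, 257 and 282 *Gata6* counts in their replicates. The 4 neural markers summed to at most 10.4 CPM in any sample, and the 6 trophoblast markers, which include *Cdx2*, ranged from 14.0 to 14.3 CPM in EpiLCs to 39.8 to 43.8 CPM in ESCs. D6PGCLC replicate 1 had 18061 genes with a count, against 21103 to 24343 in the other samples.

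Expression is given as CPM, counts scaled to a common library size with TMM factors, with replicates 1, 2 and 3 in that order. Differences were tested with edgeR's quasi-likelihood test over the 18090 genes that passed a filter on low counts, and a gene was called when its Benjamini-Hochberg adjusted p was under 0.05 and its log2 fold change above 1 or below -1. Of the 53 members, 45 passed the filter, 34 were called in at least 1 of 7 comparisons and 11 in none. Of the 4 successive steps, the first 2 carried most of the calls, among the members as among all genes. From ESCs to EpiLCs, 21 of 45 tested members were called (46.7%), with 8 higher and 13 lower in EpiLCs, against 26.2% of all genes tested. From EpiLCs to D2PGCLCs, 16 were called (35.6%), 3 higher and 13 lower, against 25.4% of all genes. Between D2PGCLCs and D4PGCLCs only *Cdx1* and *Fzd1* were called, both higher (4.44%, against 2.94% of all genes). Between D4PGCLCs and D6PGCLCs 6 were called, 4 higher and 2 lower (13.3%, against 3.08% of all genes, 2.29% higher and 0.785% lower). From day 2 to day 6, 12 were called, with 11 higher and *Notum* lower, where 10.9% of all genes were higher and 2.75% lower. D6PGCLCs differed from EpiLCs in 15 members (33.3%, against 27.9% of all genes). They differed from ESCs in 20, of which 7 were higher and 13 lower (44.4%, against 26.2% of all genes). Without D6PGCLC replicate 1 the counts of the last 4 comparisons were 4, 13, 14 and 19. The count for D4PGCLCs against D2PGCLCs was 1 without D2PGCLC replicate 3 or D4PGCLC replicate 2, and that for D6PGCLCs against D4PGCLCs was 2 without D4PGCLC replicate 1. Without the fold cutoff, 27, 23, 5, 11, 22, 21 and 27 members passed the adjusted p in the 7 comparisons in this order, against 52.5, 53.2, 11.9, 12.8, 37.7, 57.4 and 53.7% of all genes. The 3 samples of a group lay wholly above or below those of the other in 30 of 45 members in EpiLCs against ESCs (63.5% of all genes), 28 in D2PGCLCs against EpiLCs (61.0%), 16 and 14 in the steps to day 4 (28.5%) and day 6 (29.5%), 23 from day 2 to day 6 (47.2%), 27 in D6PGCLCs against EpiLCs (63.1%) and 30 against ESCs (62.0%). Comparisons of neighbouring steps share a group and are not independent of each other.

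**Figure D1:**
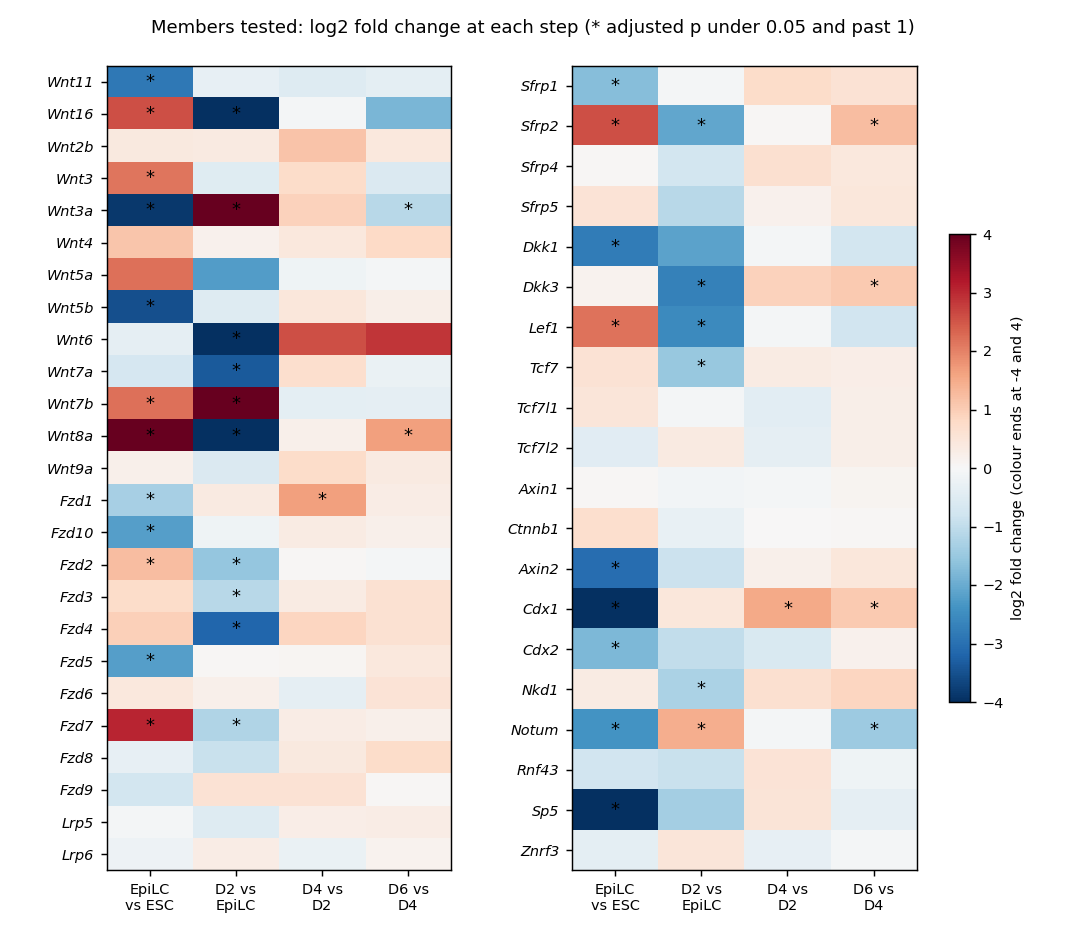
Log2 fold change of the 45 tested members (rows) at each of the 4 successive steps (columns), with colours ending at -4 and 4 and an asterisk on each call. Asterisks are frequent in the first 2 columns, with 21 and 16 calls (46.7 and 35.6%, against 26.2 and 25.4% of all genes tested). They are fewer in the last 2, with 2 and 6 calls (4.44 and 13.3%, against 2.94 and 3.08% of all genes). The colours of Wnt6 and Wnt16 against groups at 0 counts depend on the prior count of the fit.

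TCF/LEF factors bind a short core sequence, and of the members highest in ESCs, 3 carry it just upstream of a start site, so their promoters are shown. The letters CTTTGAT were searched on either strand (ATCAAAG on the other) in windows from 250 bases before to 50 bases after the start of each RefSeq transcript (GRCm38, the mm10 build). Of the 53 members, 35 had a window, and 3 of these 35 held the core (8.57%), against 1160 of 27025 genes (4.29%) and 3.73% of all windows of this length. The 3 were *Sp5*, at -104 from the start on the forward strand, *Wnt11*, at -51 on the reverse strand, and *Wnt5b*, at -71 on the forward strand of an internal start. All 3 were highest in ESCs, and their values follow with those of the other members. *Axin2*, *Fzd5*, *Fzd10*, *Dkk1* and *Cdx2*, highest in ESCs as well, had no such core in their windows. The other windows of *Wnt5b* and *Wnt11* held none either. *Axin2* is printed for comparison. Whether the core goes with the level of a gene was not tested. The 250 bases before each start are written along the strand of the gene, with the core in capitals. They cover chr2:70474673-70474922 (+) for *Sp5*, chr7:98834862-98835111 (+) for *Wnt11*, chr6:119449387-119449636 (-) for *Wnt5b* and chr11:108920099-108920348 (+) for *Axin2*, and overlap no annotated exon. The *Wnt5b* stretch lies within an intron of the longer transcripts, the others just outside their genes. A match is a description of these letters only, since binding was not measured.
Sp5: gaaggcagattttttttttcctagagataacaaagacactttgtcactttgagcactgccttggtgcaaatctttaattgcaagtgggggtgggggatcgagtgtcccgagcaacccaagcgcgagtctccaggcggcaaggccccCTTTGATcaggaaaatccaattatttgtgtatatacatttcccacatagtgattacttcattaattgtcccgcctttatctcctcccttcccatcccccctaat
Wnt11: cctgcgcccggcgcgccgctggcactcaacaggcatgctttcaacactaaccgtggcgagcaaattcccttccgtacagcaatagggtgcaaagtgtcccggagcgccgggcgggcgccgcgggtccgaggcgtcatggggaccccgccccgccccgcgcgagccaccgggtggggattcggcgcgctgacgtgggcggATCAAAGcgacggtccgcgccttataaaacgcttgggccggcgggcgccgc
Wnt5b: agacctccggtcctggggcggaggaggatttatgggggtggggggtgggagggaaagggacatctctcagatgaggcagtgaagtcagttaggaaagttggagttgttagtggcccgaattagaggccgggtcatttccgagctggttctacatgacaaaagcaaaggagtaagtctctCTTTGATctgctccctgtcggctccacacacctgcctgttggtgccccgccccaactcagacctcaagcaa
Axin2: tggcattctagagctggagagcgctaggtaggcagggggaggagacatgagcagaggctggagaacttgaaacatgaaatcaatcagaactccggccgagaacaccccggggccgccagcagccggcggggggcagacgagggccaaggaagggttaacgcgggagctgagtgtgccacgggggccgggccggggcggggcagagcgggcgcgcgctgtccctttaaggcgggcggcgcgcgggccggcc

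By mean share, each state had its own leading WNT ligand: *Wnt5b* in ESCs, *Wnt8a* in EpiLCs, and *Wnt7b*, followed by *Wnt3a*, in PGCLCs. To compare genes with each other, levels were divided by exon length (RPKM), which leaves the sum over the 19 ligands at 13.8 ± 1.16 RPKM in ESCs (SD, n = 3), 13.7 ± 3.67 in EpiLCs, 9.64 ± 1.87 in PGCLCs on day 2, 10.9 ± 0.964 on day 4 and 8.64 ± 2.07 on day 6. *Wnt5b* made up 72.0% ± 1.59 of this sum in ESCs. In EpiLCs *Wnt8a* made up 79.9% ± 2.16. *Wnt7b* took the first place in D2PGCLCs with 58.7% ± 4.70, followed by *Wnt3a* with 23.0% ± 3.63. In D4PGCLCs the shares of *Wnt7b* (39.7% ± 2.98) and *Wnt3a* (37.7% ± 4.11) lay within 1 SD of each other. In D6PGCLCs *Wnt7b* held 39.3% ± 3.02 and *Wnt3a* 20.3% ± 9.95, the latter spread from 8.84% in replicate 3 to 26.6% in replicate 1. In replicate 3 *Wnt5b* (12.1%), *Wnt9a* (10.7%) and *Wnt3* (10.4%) were ahead of *Wnt3a*. *Wnt8a* held 11.7% ± 3.22 and *Wnt5b* 11.5% ± 2.66 in D6PGCLCs. These shares are descriptions of transcript levels and were not tested.

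**Figure D2:**
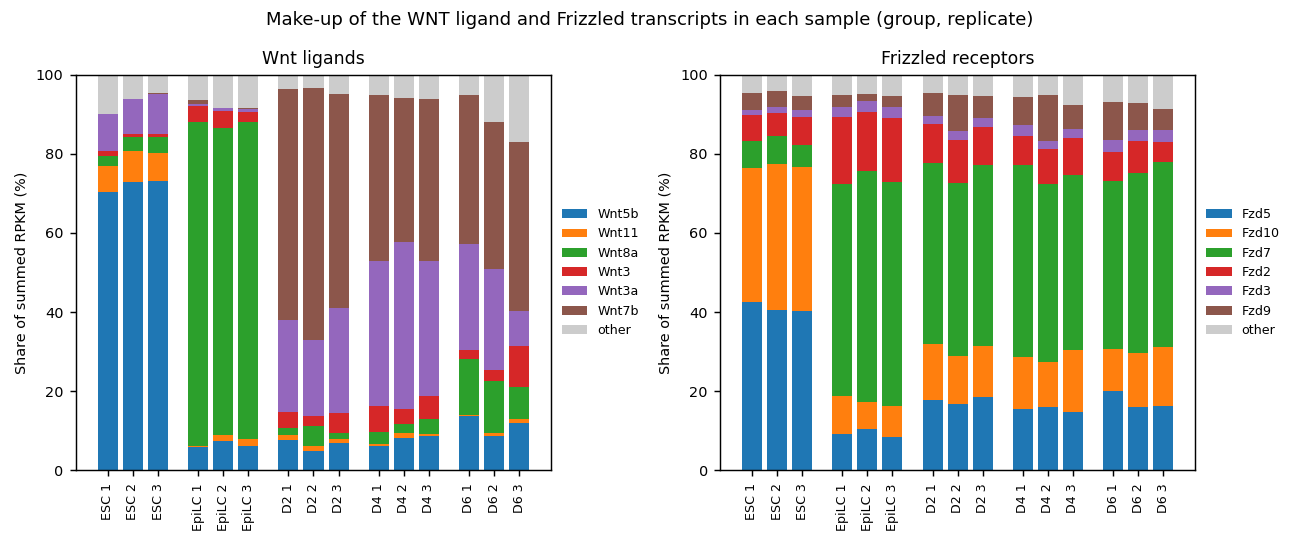
Share (%) of each gene in the summed RPKM of the 19 Wnt ligands (left) and the 10 Frizzled receptors (right), with 1 bar for each of the 15 samples. The left bars are mostly Wnt5b in ESCs, Wnt8a in EpiLCs and Wnt7b with Wnt3a in PGCLCs, with Wnt3a at 8.84% in D6PGCLC replicate 3. The right bars are mostly Fzd5 with Fzd10 in ESCs and Fzd7 in EpiLCs. In PGCLCs Fzd7 is the largest part, with means of 45.0, 45.8 and 44.8% on days 2, 4 and 6.

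Of the 13 tested ligands, 7 were called between ESCs and EpiLCs (4 higher, 3 lower), 6 between EpiLCs and D2PGCLCs (2 higher, 4 lower), 0 between D2PGCLCs and D4PGCLCs by edgeR or DESeq2 (1 at an unadjusted p under 0.05 by either) and 2 between D4PGCLCs and D6PGCLCs. Over all genes the shares called in these steps were 26.2%, 25.4%, 2.94% and 3.08%, against 53.8%, 46.2%, 0% and 15.4% of the tested ligands. *Wnt5b* (ENSMUSG00000030170, chr6:119432531-119544347, in mm10 as all coordinates here) encodes a ligand mostly linked to β-catenin-independent signalling. Its levels were 25.4, 24.7 and 29.3 CPM in ESCs, 2.79, 2.17 and 2.02 in EpiLCs, 1.87, 1.54 and 1.47 on day 2 of PGCLC induction, 1.67, 2.62 and 2.41 on day 4 and 3.70, 2.18 and 2.01 on day 6. The ESC samples lay above all others with no overlap, and the level in EpiLCs was 11.4 times lower, a log2 fold change of -3.51 (SE 0.24, adjusted p = 4.93e-10). It did not come back in PGCLCs, where D6PGCLCs differed from ESCs by -3.33 (SE 0.23, adjusted p = 8.57e-10) on the log2 scale. *Wnt11* (ENSMUSG00000015957, chr7:98835112-98855195), a ligand of cell movement in gastrulation, was likewise highest in ESCs. It measured 3.79, 4.16 and 4.39 CPM in ESCs, 0.230, 0.691 and 0.771 in EpiLCs, 0.429, 0.609 and 0.330 on day 2 of PGCLC induction, 0.212, 0.572 and 0.172 on day 4 and 0.131, 0.352 and 0.227 on day 6. EpiLCs fell below ESCs with a log2 fold change of -2.85 (SE 0.49, adjusted p = 7.62e-05), and the highest of the 9 PGCLC samples stayed under 1 CPM.

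*Wnt8a*, a ligand of the posterior epiblast and primitive streak, was high in EpiLCs alone. It measured 0.620, 0.789 and 1.11 CPM in ESCs, 25.6, 15.0 and 17.0 in EpiLCs, 0.306, 1.04 and 0.240 on day 2 of PGCLC induction, 0.546, 0.512 and 0.716 on day 4 and 2.47, 2.18 and 0.879 on day 6. The lowest EpiLC sample lay above every sample of the other groups. The rise from ESCs to EpiLCs (22.6-fold, log2 fold change 4.50, SE 0.43, adjusted p = 5.23e-08) was followed by a fall into D2PGCLCs, with a log2 fold change of -5.22 (SE 0.45, adjusted p = 1.48e-08) (-6.11 without D2PGCLC replicate 2). On day 6 all samples were above all day 4 samples, replicate 3 by the least, a log2 fold change of 1.64 (SE 0.43, adjusted p = 0.0184). That last call was lost when only the 2 groups compared were fitted, without D4PGCLC replicate 1, without D4PGCLC replicate 2 or without D6PGCLC replicate 1 (adjusted p from 0.0519 to 0.0731). *Wnt16* was also highest in EpiLCs, with 12 to 14 counts per sample against 1 to 3 in ESCs and at most 1 count in any PGCLC sample. In D2PGCLCs its 1 count over the group against 39 in EpiLCs was a ratio of 43.7 (95% counting interval 7.39 to 1769), a fall that was called. Its call in EpiLCs against ESCs was lost with DESeq2, with no filter on low counts, without ESC replicate 1, without ESC replicate 2, without ESC replicate 3, without EpiLC replicate 1, without EpiLC replicate 2 or without EpiLC replicate 3 (adjusted p from 0.051 to 0.159).

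*Wnt7b* (ENSMUSG00000022382, chr15:85535437-85582473), known for roles in placenta, lung and kidney, was near the detection limit in ESCs and among the higher ligands in PGCLCs. The values were 0.109, 0 and 0.101 CPM in ESCs, 0.842, 0.0658 and 0.220 in EpiLCs, 26.1, 36.4 and 21.4 on day 2 of PGCLC induction, 21.2, 21.4 and 20.8 on day 4 and 18.7, 17.4 and 13.1 on day 6. The 3 groups of PGCLCs lay above all ESC and EpiLC samples. From EpiLCs to D2PGCLCs the level rose 76.6-fold, a log2 fold change of 6.26 (SE 0.39, adjusted p = 1.98e-10). EpiLC replicate 1 held most of the EpiLC counts, and without it this log2 fold change was 7.62. The call of EpiLCs above ESCs (log2 fold change 2.21, SE 0.85, adjusted p = 0.0363) rested on few counts. It was lost without ESC replicate 1, without ESC replicate 2, without ESC replicate 3 or without EpiLC replicate 1 (adjusted p from 0.0551 to 0.439). Against the 6 counts in all ESC samples together, the 1966 counts in D6PGCLCs were a ratio of 221 (95% counting interval 101 to 603). From day 2 to day 6 the log2 difference was -0.77 (SE 0.26, adjusted p = 0.0269), under the fold cutoff. An exon of *Wnt7b* overlaps the antisense gene *AU022754*, and the sources do not state whether reads were counted by strand.

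*Wnt3a* (ENSMUSG00000009900, chr11:59248033-59290752), a ligand that activates β-catenin and maintains mesoderm progenitors, was present in ESCs, low in EpiLCs and present again in PGCLCs. It measured 3.54, 3.16 and 4.29 CPM in ESCs, 0.230, 0.263 and 0.257 in EpiLCs, 5.82, 6.24 and 5.91 on day 2 of PGCLC induction, 10.4, 14.0 and 9.82 on day 4 and 7.41, 6.74 and 1.53 on day 6. The EpiLC samples lay below all others, and the D4PGCLC samples above all others. EpiLCs fell by 3.85 on the log2 scale relative to ESCs (SE 0.50, adjusted p = 3.12e-06), and D2PGCLCs rose relative to EpiLCs with a log2 fold change of 4.56 (SE 0.49, adjusted p = 3e-07). D6PGCLC replicate 3 was well below replicates 1 and 2, and the fall from D4PGCLCs to D6PGCLCs (log2 fold change -1.12, SE 0.34, adjusted p = 0.0378) was under the fold cutoff without it. The call was lost when only the 2 groups compared were fitted, without D4PGCLC replicate 1, without D4PGCLC replicate 2 or without D4PGCLC replicate 3 (adjusted p from 0.0513 to 0.15), and without D6PGCLC replicate 3 (log2 fold change -0.70). *Wnt3* (ENSMUSG00000000125, chr11:103774150-103817957), the ligand that starts the primitive streak, stayed at or below 2.14 CPM in every sample. Its values were 0.438, 0.307 and 0.268 CPM in ESCs, 2.14, 1.41 and 0.917 in EpiLCs, 1.13, 0.860 and 1.20 on day 2 of PGCLC induction, 2.09, 1.39 and 1.80 on day 4 and 0.736, 0.815 and 2.01 on day 6. All EpiLC samples were above all ESC samples (log2 fold change 2.13, SE 0.48, adjusted p = 0.00103), whereas the PGCLC samples overlapped the EpiLC samples on each day. D6PGCLCs remained above ESCs with a log2 fold change of 1.79 (SE 0.48, adjusted p = 0.00383).

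**Figure D3:**
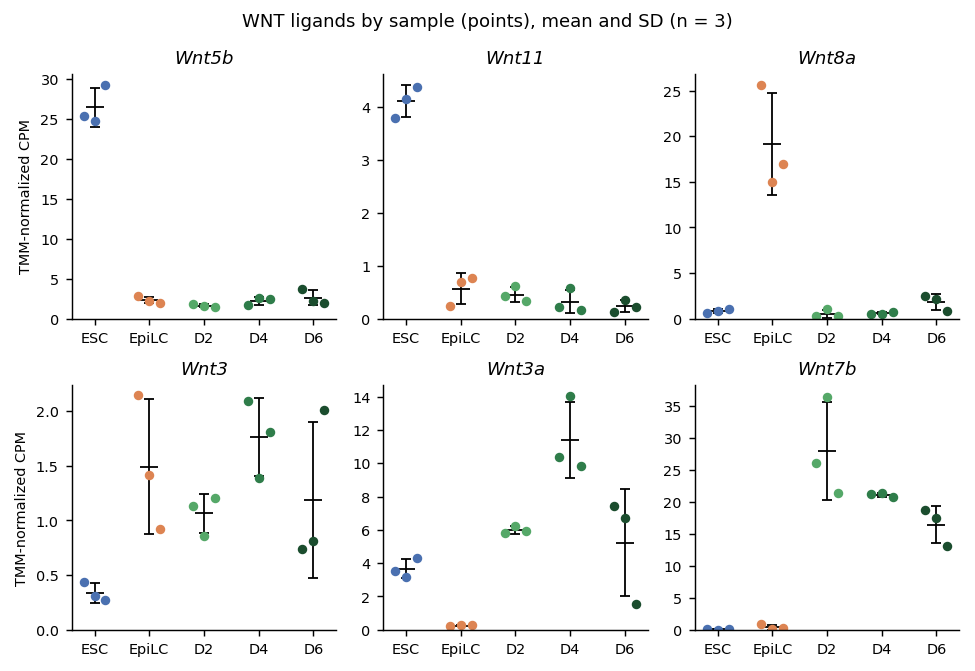
TMM-normalized CPM (linear axes from 0) of 6 WNT ligands in each sample of the 5 groups, where points are samples and bars the mean and SD (n = 3). Wnt5b and Wnt11 sit high in ESCs only, Wnt8a in EpiLCs, and Wnt7b in the 9 PGCLC samples, while Wnt3a is lowest in EpiLCs.

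The remaining ligands were scarce. *Wnt5a*, linked to cell movement and planar polarity, had 12, 0 and 1 counts in the ESC samples, 38, 13 and 10 in EpiLCs and 0 to 11 in PGCLCs. Its log2 difference between EpiLCs and ESCs was 2.20 (SE 1.04, adjusted p = 0.0839), which was not called, and its fall from EpiLCs to D6PGCLCs (log2 fold change -2.48, SE 1.02, adjusted p = 0.0447) was. That call was lost with the replicate number as a block, without EpiLC replicate 1, without EpiLC replicate 2, without D6PGCLC replicate 1 or without D6PGCLC replicate 3 (adjusted p from 0.0509 to 0.267). *Wnt6* had 8 to 10 counts per EpiLC sample and 0 in all 3 D2PGCLC samples, which makes it at least 10.1-fold lower there with a floor of 3 counts over the group. By day 6 it was back at 2 to 11 counts, at least 5.27-fold higher than on day 2 by the same floor. *Wnt7a* fell from 11 to 23 counts in EpiLCs to 0 to 3 in D2PGCLCs. *Wnt2b* and *Wnt4* were called between ESCs and D6PGCLCs only, from at most 5 counts in any ESC sample to 9 to 22 and 16 to 45 counts. For *Wnt2b* the call was lost with no filter on low counts, without ESC replicate 1, without ESC replicate 2, without ESC replicate 3, without D6PGCLC replicate 2 or without D6PGCLC replicate 3 (adjusted p from 0.0569 to 0.111). That of *Wnt4* was lost without D6PGCLC replicate 2 (adjusted p = 0.0539). *Wnt9a*, at 0.503 to 2.24 CPM over all samples, was tested and called in no comparison. *Wnt1*, *Wnt2*, *Wnt8b*, *Wnt9b*, *Wnt10a* and *Wnt10b* did not pass the filter, with at most 6 counts in any sample.

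The leading Frizzled receptor differed between ESCs and EpiLCs. *Fzd5* and *Fzd10* together held most of the Frizzled transcripts in ESCs, 41.1% ± 1.27 and 35.6% ± 1.54 of the summed RPKM (SD, n = 3), and *Fzd7* held 56.1% ± 2.37 in EpiLCs. *Fzd7* kept the first place in PGCLCs, with 45.0% ± 1.12 on day 2, 45.8% ± 2.28 on day 4 and 44.8% ± 2.23 on day 6. The summed level was 48.8 ± 0.947 RPKM in ESCs, 46.8 ± 2.82 in EpiLCs, 25.5 ± 2.56 in PGCLCs on day 2, 31.0 ± 2.02 on day 4 and 36.5 ± 1.60 on day 6, so every PGCLC sample lay below every ESC and EpiLC sample. Of the 12 receptor genes, all tested, 5 were called between ESCs and EpiLCs (2 higher, 3 lower, 41.7%, against 26.2% of all genes) and 4 between EpiLCs and D2PGCLCs (all lower, 33.3%, where 14.4% of all genes were called lower and 25.4% in either direction).

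*Fzd5* (ENSMUSG00000045005, chr1:64730558-64737751), a receptor with a role in the yolk sac and eye, measured 147, 136 and 133 CPM in ESCs, 32.0, 32.3 and 27.0 in EpiLCs, 34.8, 29.5 and 29.8 on day 2 of PGCLC induction, 33.3, 36.5 and 29.4 on day 4 and 53.2, 40.5 and 39.5 on day 6. The ESC samples stood apart from the other 12, and EpiLCs were 4.56 times lower (log2 fold change -2.19, SE 0.12, adjusted p = 3e-11). *Fzd10* (ENSMUSG00000081683, chr5:128600844-128604093), a member of the same receptor subfamily as *Fzd4* and *Fzd9*, measured 54.9, 57.8 and 56.8 CPM in ESCs, 15.5, 9.60 and 11.9 in EpiLCs, 12.9, 9.93 and 9.66 on day 2 of PGCLC induction, 13.3, 12.4 and 14.7 on day 4 and 13.1, 16.0 and 17.0 on day 6. It too was separate in ESCs, with a log2 fold change of -2.20 (SE 0.16, adjusted p = 1.31e-09) into EpiLCs, and D6PGCLCs were still lower than ESCs by -1.88 (SE 0.16, adjusted p = 9.9e-09) on the log2 scale. *Fzd7* (ENSMUSG00000041075, chr1:59482424-59486955), a receptor well known from pluripotent cells, went the other way. Its levels were 15.2, 15.7 and 12.3 CPM in ESCs, 121, 116 and 119.8 in EpiLCs, 58.4, 50.1 and 47.6 on day 2 of PGCLC induction, 68.1, 67.2 and 58.1 on day 4 and 73.4, 74.4 and 74.3 on day 6. No 2 of the ESC, EpiLC and D2PGCLC groups overlapped. It rose 8.27-fold into EpiLCs (log2 fold change 3.05, SE 0.11, adjusted p = 5.29e-14), fell into D2PGCLCs (log2 fold change -1.19, SE 0.10, adjusted p = 7.56e-09) and was in D6PGCLCs still higher than in ESCs (log2 fold change 2.36, SE 0.10, adjusted p = 2.07e-12).

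*Fzd2*, *Fzd3* and *Fzd4* were lower in D2PGCLCs than in EpiLCs. *Fzd2*, a near relative of *Fzd7*, measured 11.9, 10.4 and 12.6 CPM in ESCs, 30.8, 24.2 and 27.9 in EpiLCs, 10.1, 10.0 and 8.16 on day 2 of PGCLC induction, 8.40, 10.8 and 10.1 on day 4 and 10.4, 10.8 and 6.35 on day 6. The EpiLC samples were above all others, with a log2 fold change of 1.25 (SE 0.18, adjusted p = 8.71e-06) from ESCs and -1.55 (SE 0.18, adjusted p = 6.68e-07) into D2PGCLCs. *Fzd3*, a receptor of planar polarity and axon guidance, measured 8.65, 9.56 and 10.3 CPM in ESCs, 15.0, 16.1 and 16.5 in EpiLCs, 8.03, 7.17 and 6.87 on day 2 of PGCLC induction, 11.4, 8.10 and 8.31 on day 4 and 15.5, 12.9 and 14.2 on day 6. It fell into D2PGCLCs (log2 fold change -1.11, SE 0.15, adjusted p = 4.69e-06), and on day 6 it was again above all day 2 samples with a difference of 0.95 (SE 0.15, adjusted p = 7.48e-05), just under the fold cutoff. *Fzd4*, the Norrin receptor of retinal vessels, measured 3.58, 3.59 and 3.35 CPM in ESCs, 6.05, 5.82 and 8.66 in EpiLCs, 0.644, 0.788 and 0.840 on day 2 of PGCLC induction, 0.667, 1.66 and 1.80 on day 4 and 0.867, 2.44 and 2.95 on day 6. D2PGCLCs were 9.00 times lower than EpiLCs (log2 fold change -3.17, SE 0.41, adjusted p = 2.63e-06), and D6PGCLCs rose above D2PGCLCs (log2 fold change 1.46, SE 0.40, adjusted p = 0.00842), although D6PGCLC replicate 1 stayed near the day 2 level.

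*Fzd1* and *Fzd8* rose from day 2 to day 6, and *Fzd9* was above its EpiLC level on day 6. *Fzd1*, a receptor close to *Fzd2* and *Fzd7* in sequence, measured 2.30, 1.49 and 2.01 CPM in ESCs, 1.11, 0.822 and 0.367 in EpiLCs, 0.981, 1.04 and 0.900 on day 2 of PGCLC induction, 2.97, 2.74 and 3.35 on day 4 and 3.52, 3.08 and 4.48 on day 6. It was one of the 2 members called between D2PGCLCs and D4PGCLCs (log2 fold change 1.63, SE 0.32, adjusted p = 0.00298), and all day 4 and day 6 samples lay above all other samples. The fall from ESCs to EpiLCs (log2 fold change -1.34, SE 0.34, adjusted p = 0.00263) was near the fold cutoff. It was not called without EpiLC replicate 3 (log2 fold change -0.997). *Fzd8*, a close relative of *Fzd5*, measured 5.25, 5.13 and 7.57 CPM in ESCs, 5.20, 4.34 and 4.92 in EpiLCs, 2.88, 2.62 and 2.34 on day 2 of PGCLC induction, 2.91, 2.68 and 4.70 on day 4 and 5.28, 6.34 and 5.70 on day 6. D6PGCLCs were above all D2PGCLC samples with a log2 fold change of 1.14 (SE 0.23, adjusted p = 0.000753). *Fzd9* measured 4.82, 4.38 and 3.92 CPM in ESCs, 3.48, 1.61 and 2.90 in EpiLCs, 3.71, 5.27 and 2.91 on day 2 of PGCLC induction, 5.00, 8.71 and 4.01 on day 4 and 8.30, 5.81 and 4.19 on day 6. Its only call was D6PGCLCs against EpiLCs (log2 fold change 1.20, SE 0.33, adjusted p = 0.00439). The call was lost without EpiLC replicate 2 or without D6PGCLC replicate 1 (log2 fold change 0.94 and 0.93). *Fzd6*, at 1.27 to 3.92 CPM, and the co-receptors *Lrp5*, at 39.8 to 68.2 CPM, and *Lrp6*, at 86.6 to 135.5 CPM over the 15 samples, were called in no comparison.

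**Figure D4:**
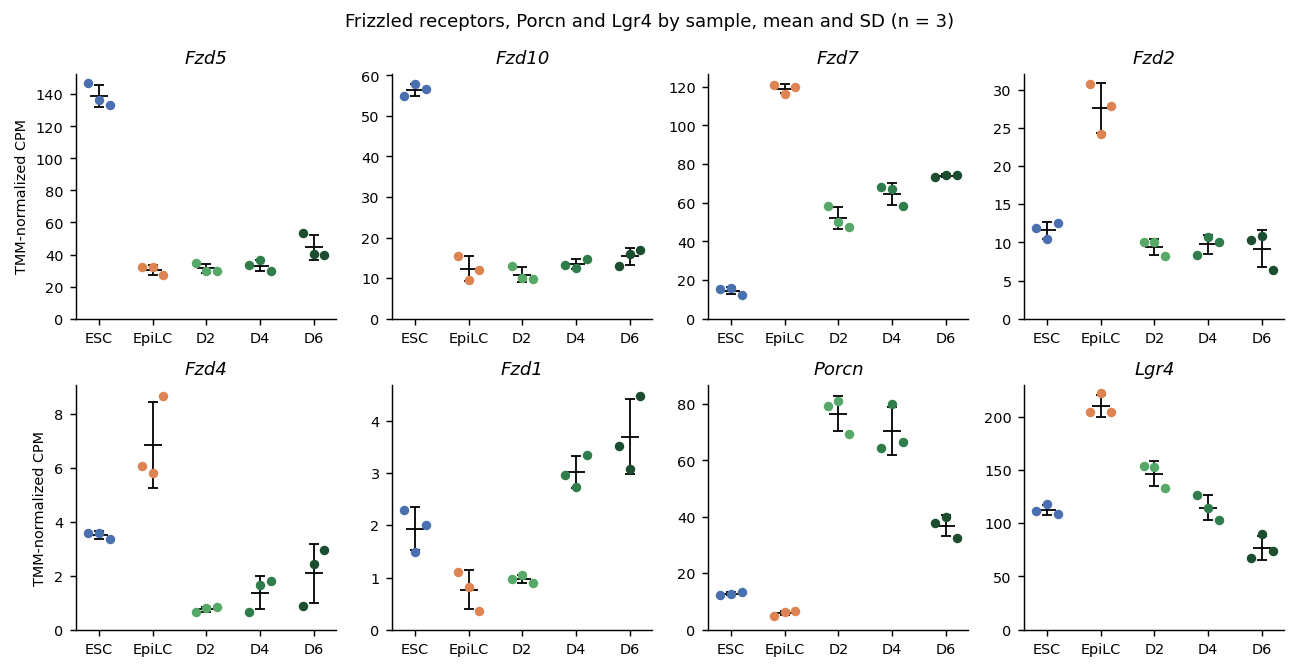
TMM-normalized CPM (linear axes from 0) of 6 Frizzled receptors, the ligand acyltransferase Porcn and the R-spondin receptor Lgr4 in each sample, with mean and SD (n = 3). Fzd5 and Fzd10 are high in ESCs only, Fzd7 peaks in EpiLCs at 116 to 121 CPM, and Porcn is high in D2PGCLCs and D4PGCLCs.

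Among the secreted inhibitors, which bind WNT ligands (SFRP) or LRP5 and LRP6 (DKK1), *Sfrp1* was the most abundant per length in every group. It held 79.9% ± 0.573 of the summed RPKM of the 8 genes in ESCs (SD, n = 3) and 43.4% ± 3.00 in EpiLCs. *Sfrp1* (ENSMUSG00000031548, chr8:23411502-23449632) measured 60.5, 56.5 and 56.8 CPM in ESCs, 19.4, 17.7 and 15.9 in EpiLCs, 18.7, 14.9 and 16.5 on day 2 of PGCLC induction, 28.0, 26.5 and 29.7 on day 4 and 47.8, 41.4 and 36.1 on day 6. It fell into EpiLCs (log2 fold change -1.71, SE 0.12, adjusted p = 5.66e-10), had no call into D2PGCLCs, and rose from day 2 to day 6 (log2 fold change 1.32, SE 0.12, adjusted p = 1.38e-07) with the 3 days in order and not overlapping. *Sfrp2* measured 0.766, 1.18 and 0.804 CPM in ESCs, 5.85, 5.36 and 4.99 in EpiLCs, 1.26, 1.79 and 0.810 on day 2 of PGCLC induction, 1.03, 1.33 and 1.58 on day 4 and 3.13, 3.04 and 3.09 on day 6. EpiLCs were above all other samples (log2 fold change 2.56, SE 0.30, adjusted p = 9.14e-07 from ESCs), D2PGCLCs fell (log2 fold change -2.08, SE 0.29, adjusted p = 7.18e-06), and D6PGCLCs rose above D4PGCLCs (log2 fold change 1.23, SE 0.28, adjusted p = 0.00862). *Sfrp4* measured 5.73, 5.09 and 5.19 CPM in ESCs, 6.16, 4.90 and 5.36 in EpiLCs, 4.29, 1.72 and 3.87 on day 2 of PGCLC induction, 5.76, 3.62 and 6.21 on day 4 and 6.67, 6.39 and 7.65 on day 6. Its rise from day 2 to day 6 (log2 fold change 1.06, SE 0.26, adjusted p = 0.00405) was close to the fold cutoff, with D2PGCLC replicate 2 the lowest sample. The call was lost without D2PGCLC replicate 2 or without D6PGCLC replicate 3 (log2 fold change 0.75 and 0.98). *Sfrp5*, at 0.0263 to 1.21 CPM, was not called. *Sfrp2* was higher in EpiLCs than in ESCs, while *Sfrp1* was lower and *Sfrp4* was not called. The fibroblast markers *Col1a2*, *Col3a1*, *Dcn* and *Thy1* and the endoderm markers *Dab2* and *Foxa2* were called higher in that step too. The endoderm markers *Gata4* and *Sox17* were called lower (log2 fold change -2.37 and -1.16). *Amn*, *Gata6* and the fibroblast marker *Col1a1* were not called. *Sfrp1*, *Sfrp2* and *Sfrp4* were higher on day 6 than on day 2. In that comparison 4 of 6 endoderm markers were called higher and *Amn* was called lower. The sum of the trophoblast markers was 22.5 to 28.5 CPM on day 2 and 31.5 to 39.3 CPM on day 6. Of these, *Hand1* went from a mean of 1.24 to 13.1 CPM and *Eomes*, not called, from 19.1 to 14.2 CPM. *Tfap2a* was called higher as well, and *Elf5*, *Cdx2* and *Krt7* were not called. The part of these markers in these results was not tested, and in bulk samples fewer cells of a type and less RNA per cell cannot be told apart.

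*Dkk1* (ENSMUSG00000024868, chr19:30545863-30549665), an inhibitor that is itself a WNT target, was low and nearly confined to ESCs, at 0.803, 1.18 and 1.27 CPM in ESCs, 0.230, 0.230 and 0 in EpiLCs, 0.0613, 0 and 0.0300 on day 2 of PGCLC induction, 0.0606, 0.0301 and 0 on day 4 and 0, 0.0440 and 0 on day 6. The ESC samples did not overlap any other. *Dkk1* passed the filter on low counts through these samples alone, with 22 to 38 counts against at most 7 elsewhere. Its calls against ESCs are therefore not separate support for a high level there. *Dkk1* fell into EpiLCs (log2 fold change -2.79, SE 0.89, adjusted p = 0.0135). The call was lost without ESC replicate 3 or without EpiLC replicate 3 (adjusted p from 0.0532 to 0.057). Against the 2 counts in all D6PGCLC samples, the 87 counts in ESCs were a ratio of 64.5 (95% counting interval 17.3 to 541), and this call held in each fit that left out a library. *Dkk3*, a divergent member of the family, measured 3.14, 2.89 and 3.05 CPM in ESCs, 4.09, 2.43 and 3.52 in EpiLCs, 0.644, 0.538 and 0.360 on day 2 of PGCLC induction, 0.910, 1.14 and 0.888 on day 4 and 1.50, 2.38 and 2.21 on day 6. The D2PGCLC samples were the lowest of all, after a fall from EpiLCs of -2.70 (SE 0.32, adjusted p = 1.19e-06) on the log2 scale. By day 6 the level had risen again relative to day 2 (log2 fold change 1.98, SE 0.32, adjusted p = 0.000109), in part from day 4 to day 6 (log2 fold change 1.05, SE 0.30, adjusted p = 0.0275). The latter call was lost with no filter on low counts, when only the 2 groups compared were fitted, without D4PGCLC replicate 1, without D4PGCLC replicate 3, without D6PGCLC replicate 2 or without D6PGCLC replicate 3 (adjusted p from 0.0597 to 0.0926). *Dkk4* had at most 7 counts in a sample and *Dkk2* had 0 in every sample, so both were left out of the tests.

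Summed per length, the TCF/LEF factors were highest in EpiLCs. The 4 genes reached 76.7 ± 3.18 RPKM in EpiLCs (SD, n = 3), against 46.7 ± 3.19 in ESCs, 36.8 ± 1.44 in PGCLCs on day 2, 35.3 ± 4.15 on day 4 and 40.8 ± 4.25 on day 6. *Lef1* (ENSMUSG00000027985, chr3:131110471-131224356), a nuclear partner of β-catenin and itself a WNT target, measured 26.4, 30.4 and 25.4 CPM in ESCs, 121, 125 and 120.4 in EpiLCs, 18.5, 31.2 and 13.8 on day 2 of PGCLC induction, 15.4, 33.4 and 11.4 on day 4 and 8.33, 20.9 and 6.09 on day 6. The 3 EpiLC samples lay far above the rest, with a 4.46-fold rise from ESCs (log2 fold change 2.16, SE 0.38, adjusted p = 9.96e-05). It fell 5.79-fold into D2PGCLCs (log2 fold change -2.53, SE 0.39, adjusted p = 2.03e-05). Replicate 2 was the highest of the 3 on each day in PGCLCs. D6PGCLCs were below ESCs (log2 fold change -1.20, SE 0.38, adjusted p = 0.0131). The call was lost without D6PGCLC replicate 1 or without D6PGCLC replicate 3 (adjusted p from 0.0604 to 0.0681), whereas without D6PGCLC replicate 2 the log2 fold change was -1.92. *Tcf7* (ENSMUSG00000000782, chr11:52252371-52283014), which encodes TCF1, measured 78.5, 77.1 and 71.0 CPM in ESCs, 103, 118 and 115 in EpiLCs, 38.9, 44.1 and 33.9 on day 2 of PGCLC induction, 44.4, 53.7 and 47.1 on day 4 and 62.9, 60.6 and 52.2 on day 6. It fell from EpiLCs to D2PGCLCs (log2 fold change -1.52, SE 0.11, adjusted p = 8.76e-10), and its difference between EpiLCs and ESCs of 0.57 (SE 0.10, adjusted p = 0.000146) was under the fold cutoff. *Tcf7l1* (TCF3), the main repressor of WNT targets in ESCs, was called in no comparison, at 48.8 to 81.0 CPM over the 15 samples, and neither was *Tcf7l2*, at 5.32 to 10.9 CPM. By these levels *Tcf7* made up 61.7% ± 1.95 of the summed RPKM in ESCs and 55.4% ± 1.77 in EpiLCs, while *Tcf7l1* made up 50.7% ± 8.43 and *Tcf7* 40.3% ± 5.43 in D2PGCLCs. In D2PGCLC replicate 2 *Tcf7* was still ahead, with 46.4% against 41.2%. *Tcf7* led in every sample of the later days, with 52.4% ± 1.31 on day 4 and 54.7% ± 0.877 on day 6.

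Of the transducers, *Ctnnb1* encodes β-catenin, whose activity is set by protein stability rather than by transcript level. It measured 579.7 ± 15.6 CPM in ESCs, 931 ± 24.1 CPM in EpiLCs, 760.2 ± 36.0 CPM in PGCLCs on day 2, 776 ± 11.9 CPM on day 4 and 798 ± 31.6 CPM on day 6. The ESC samples were the lowest, with a difference to EpiLCs of 0.68 (SE 0.07, adjusted p = 5.86e-08) on the log2 scale, under the fold cutoff. *Axin1*, the scaffold of the destruction complex, lay between 78.0 and 100.3 CPM in all 15 samples and was called in no comparison.

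The feedback and target genes were, with 5 of 8 called, all lower in EpiLCs than in ESCs where they changed. Among all genes, 11.9% were called lower in this step. *Axin2* (ENSMUSG00000000142, chr11:108920349-108950783), the negative feedback partner of *Axin1* and the most used readout of β-catenin activity, measured 142, 137 and 139.7 CPM in ESCs, 14.0, 15.2 and 21.3 in EpiLCs, 9.29, 11.5 and 7.26 on day 2 of PGCLC induction, 9.00, 14.5 and 8.68 on day 4 and 17.3, 15.1 and 11.8 on day 6. The ESC samples were far above the highest of the other 12. EpiLCs were 8.30 times lower than ESCs (log2 fold change -3.05, SE 0.20, adjusted p = 3.71e-10), and D6PGCLCs 9.45 times lower (log2 fold change -3.24, SE 0.20, adjusted p = 2.05e-10). Within the later groups the differences were smaller than the fold cutoff, -0.85 (SE 0.20, adjusted p = 0.0016) from EpiLCs to D2PGCLCs and 0.67 (SE 0.20, adjusted p = 0.0141) from day 2 to day 6. An exon of *Axin2* overlaps the antisense gene *Gm11670*.

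*Sp5* (ENSMUSG00000075304, chr2:70474923-70477729), a zinc finger factor induced by WNT in many tissues, had the largest fall of the 8. Its levels were 37.4, 35.9 and 35.6 CPM in ESCs, 0.383, 0.296 and 0.514 in EpiLCs, 0.153, 0.287 and 0.0300 on day 2 of PGCLC induction, 0.121, 0.301 and 0.229 on day 4 and 0.368, 0.0220 and 0.142 on day 6. EpiLCs were 91.1 times lower than ESCs (log2 fold change -6.51, SE 0.39, adjusted p = 8.02e-11), and none of the 9 PGCLC samples exceeded 0.368 CPM. *Cdx1*, a caudal homeobox gene regulated by WNT, also fell and then came back in part. It measured 29.8, 30.0 and 29.7 CPM in ESCs, 0.727, 0.395 and 0.661 in EpiLCs, 1.13, 0.824 and 0.480 on day 2 of PGCLC induction, 1.70, 3.52 and 1.69 on day 4 and 5.10, 6.65 and 2.52 on day 6. The fall from ESCs to EpiLCs was 50.4-fold (log2 fold change -5.66, SE 0.39, adjusted p = 7.06e-10). From day 2 to day 6 it rose 5.87-fold (log2 fold change 2.55, SE 0.37, adjusted p = 3.07e-05), and all D6PGCLC samples lay above all D2PGCLC samples and below all ESC samples (log2 fold change -2.64, SE 0.31, adjusted p = 9.39e-07 against ESCs). It was called in both intermediate steps, with 1.50 (SE 0.38, adjusted p = 0.0157) from day 2 to day 4 and 1.05 (SE 0.32, adjusted p = 0.0378) from day 4 to day 6. The former call was lost without D2PGCLC replicate 3 or without D4PGCLC replicate 2 (adjusted p from 0.0772 to 0.0964). The latter was lost when only the 2 groups compared were fitted, without D4PGCLC replicate 1, without D4PGCLC replicate 3, without D6PGCLC replicate 1 or without D6PGCLC replicate 2 (adjusted p from 0.0895 to 0.168). *Cdx2*, the other caudal gene in the list, measured 1.64, 1.80 and 2.65 CPM in ESCs, 0.804, 0.395 and 0.550 in EpiLCs, 0.398, 0.323 and 0.150 on day 2 of PGCLC induction, 0.273, 0.241 and 0.0573 on day 4 and 0.342, 0.110 and 0.198 on day 6. The fall into EpiLCs (log2 fold change -1.80, SE 0.55, adjusted p = 0.0103) lost its call without ESC replicate 3 (adjusted p = 0.0609), whereas D6PGCLCs were below ESCs in every fit that left out a library (log2 fold change -3.22, SE 0.59, adjusted p = 0.000154), and no rise like that of *Cdx1* was called.

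*Notum* (ENSMUSG00000042988, chr11:120653788-120661175), which encodes a secreted enzyme that removes the lipid from WNT ligands, had a second, lower peak in D2PGCLCs and D4PGCLCs. It measured 79.5, 67.4 and 83.3 CPM in ESCs, 16.8, 14.6 and 12.2 in EpiLCs, 39.4, 39.9 and 39.5 on day 2 of PGCLC induction, 30.6, 49.3 and 33.3 on day 4 and 9.64, 21.5 and 9.81 on day 6. After a fall into EpiLCs (log2 fold change -2.40, SE 0.24, adjusted p = 1.28e-07) it rose 2.73-fold into D2PGCLCs (log2 fold change 1.45, SE 0.24, adjusted p = 4.98e-05). It fell again from D4PGCLCs to D6PGCLCs (log2 fold change -1.46, SE 0.24, adjusted p = 0.000656), where replicate 2 was higher than replicates 1 and 3. Exons of *Notum* overlap antisense genes including *Notumos*. *Nkd1*, an inhibitor that binds Dishevelled, measured 3.32, 3.11 and 2.45 CPM in ESCs, 3.29, 4.34 and 3.52 in EpiLCs, 2.05, 1.33 and 1.26 on day 2 of PGCLC induction, 2.24, 2.47 and 2.58 on day 4 and 3.55, 4.78 and 4.85 on day 6. It had no call from ESCs to EpiLCs, fell into D2PGCLCs (log2 fold change -1.26, SE 0.25, adjusted p = 0.000328) and rose from day 2 to day 6 (log2 fold change 1.50, SE 0.25, adjusted p = 0.000126). The ubiquitin ligases *Znrf3*, at 15.7 to 26.3 CPM, and *Rnf43*, at 0.0900 to 0.964 CPM, which remove Frizzled receptors from the membrane, were called in no comparison.

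**Figure D5:**
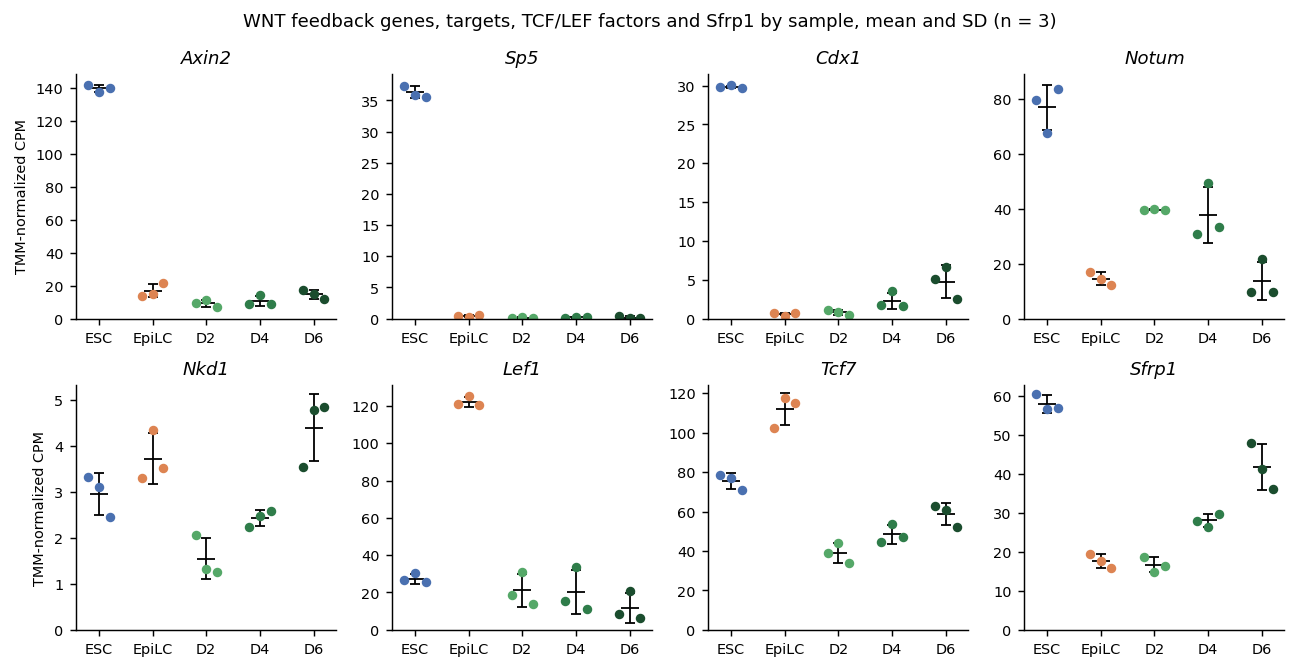
TMM-normalized CPM (linear axes from 0) of 5 feedback or target genes, the TCF/LEF factors Lef1 and Tcf7, and the inhibitor Sfrp1 in each sample, with mean and SD (n = 3). Axin2, Sp5 and Cdx1 are high in the 3 ESC samples, Lef1 in the 3 EpiLC samples, and Notum is intermediate in D2PGCLCs and D4PGCLCs.

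As a list, the 8 feedback and target genes had a median log2 fold change of -2.10 from ESCs to EpiLCs and -2.56 from ESCs to D6PGCLCs, where the medians over all genes tested were -0.0065 and -0.0022. The corresponding medians for the 13 ligands were 0.39 and 0.51. Between ESCs and D6PGCLCs 9 ligands were called (69.2%), 5 higher and 4 lower. Of all genes 26.2% were called, 15.8% higher and 10.3% lower. The calls of *Wnt2b*, *Wnt4*, *Wnt8a* and *Wnt16* were each lost in some fits that left out a sample. From day 2 to day 6 the median over all tested members was 0.50, against 0 over all genes. The 11 members called higher in that comparison were the receptors *Fzd1*, *Fzd4* and *Fzd8*, the inhibitors *Sfrp1*, *Sfrp2*, *Sfrp4* and *Dkk3*, the ligands *Wnt6* and *Wnt8a*, and *Cdx1* and *Nkd1*. The endoderm markers *Gata6*, *Gata4*, *Sox17* and *Dab2* were called higher in the same comparison, and *Amn* lower. The trophoblast markers *Hand1* and *Tfap2a*, the neural marker *Sox1* (from a mean of 0.206 to 1.01 CPM) and the fibroblast marker *Col1a1* were also called higher. In the same lists *Eomes*, *Cdx2*, *Elf5*, *Krt7*, *Pax6*, *Col1a2*, *Col3a1*, *Dcn* and *Thy1* were tested and not called. The fibroblast sum was 0.919 to 2.19 CPM on day 2 and 1.47 to 2.05 CPM on day 6.

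At the end of the course, D6PGCLCs differed in 20 members from ESCs (44.4%, against 26.2% of all genes). From EpiLCs they differed in 15 (33.3%, against 27.9% of all genes). Against ESCs, the ligands *Wnt7b*, *Wnt4*, *Wnt2b*, *Wnt3* and *Wnt8a*, the receptor *Fzd7* and the inhibitor *Sfrp2* were called higher. *Wnt8a* had a log2 fold change of 1.13 (SE 0.43, adjusted p = 0.0325) and *Sfrp2* one of 1.76 (SE 0.30, adjusted p = 7.28e-05). For *Wnt8a* the call was lost when only the 2 groups compared were fitted, without ESC replicate 1, without ESC replicate 2, without D6PGCLC replicate 1 or without D6PGCLC replicate 2 (adjusted p from 0.0546 to 0.12). The 13 called lower were the ligands *Wnt5b*, *Wnt11*, *Wnt7a* and *Wnt16*, the receptors *Fzd5* and *Fzd10*, *Dkk1*, *Lef1*, and the targets *Axin2*, *Sp5*, *Cdx1*, *Cdx2* and *Notum*. Their log2 fold changes on the CPM scale included -7.71 for *Sp5*, -4.08 for *Wnt11*, -2.48 for *Notum* and -1.64 for *Fzd5*. *Wnt16* had 0 counts in each D6PGCLC sample. Its call was lost with no filter on low counts, without ESC replicate 3 or without D6PGCLC replicate 2 (adjusted p from 0.0552 to 0.0621). Against EpiLCs, *Wnt7b* (log2 fold change 5.49, SE 0.39, adjusted p = 1.1e-09), *Wnt3a* (log2 fold change 4.37, SE 0.49, adjusted p = 4.17e-07), *Cdx1* (log2 fold change 3.02, SE 0.39, adjusted p = 2.46e-06), *Fzd1* (log2 fold change 2.26, SE 0.33, adjusted p = 1.04e-05), *Sfrp1* (log2 fold change 1.24, SE 0.12, adjusted p = 3.93e-08) and *Fzd9* were higher. Lower than in EpiLCs were *Wnt8a* (log2 fold change -3.37, SE 0.38, adjusted p = 5.08e-07), *Lef1* (log2 fold change -3.36, SE 0.40, adjusted p = 8.78e-07), *Fzd4* (log2 fold change -1.71, SE 0.37, adjusted p = 0.000563), *Fzd2* (log2 fold change -1.59, SE 0.18, adjusted p = 3.87e-07), *Wnt16*, *Wnt7a*, *Wnt5a*, *Dkk1* and *Cdx2*. For *Dkk1* this call was lost with the replicate number as a block, without EpiLC replicate 1, without EpiLC replicate 2, without D6PGCLC replicate 1 or without D6PGCLC replicate 3 (adjusted p from 0.0601 to 0.144). That of *Cdx2* was lost with no filter on low counts, with the replicate number as a block, when only the 2 groups compared were fitted, without EpiLC replicate 1, without EpiLC replicate 3, without D6PGCLC replicate 2 or without D6PGCLC replicate 3 (adjusted p from 0.0505 to 0.169). *Fzd7*, *Tcf7* and *Sfrp2*, which had fallen into D2PGCLCs, were not among the calls between EpiLCs and D6PGCLCs. Both comparisons use the same D6PGCLC samples.

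Other genes of the pathway, 66 in number of which 61 were tested, gave a count close to that of all genes in the first step. There, 16 were called (6 higher, 10 lower, 26.2%, against 26.2% of all genes). Into D2PGCLCs 23 were called (7 higher, 16 lower, 37.7%, against 25.4%). By list, 7 of the 10 tested further target and mesoderm genes were called in that step (2 higher, 5 lower) and 2 of the 15 destruction complex genes and other transducers (1 higher, 1 lower), with medians of -1.66 and 0.16 on the log2 scale. Against ESCs, 8 of the same 10 target and mesoderm genes were called lower in D6PGCLCs and 0 higher, where 10.3% of all genes were called lower. Of the 61, 3 were called from day 2 to day 4 (2 higher, 1 lower, 4.92%, against 2.94% of all genes) and 2 from day 4 to day 6 (both lower, 3.28%, against 3.08%), shares near those of all genes. The WNT target and mesoderm factor *T* (Brachyury) measured 14.8, 15.2 and 14.5 CPM in ESCs, 0.306, 0.0329 and 0.404 in EpiLCs, 0, 0.179 and 0.0600 on day 2 of PGCLC induction, 0, 0.0904 and 0 on day 4 and 0, 0.0440 and 0.0283 on day 6. It was 60.5 times lower in EpiLCs than in ESCs (log2 fold change -5.92, SE 0.54, adjusted p = 2.84e-08) and had at most 5 counts in any PGCLC sample. *Evx1*, a homeobox gene of the primitive streak, measured 3.76, 4.34 and 3.92 CPM in ESCs, 0.230, 0.0987 and 0.367 in EpiLCs, 1.84, 0.609 and 1.05 on day 2 of PGCLC induction, 1.55, 2.89 and 1.15 on day 4 and 0.0788, 0.925 and 0.397 on day 6. It fell into EpiLCs (log2 fold change -4.11, SE 0.65, adjusted p = 3.33e-05), rose into D2PGCLCs (log2 fold change 2.34, SE 0.67, adjusted p = 0.00623) and fell again from day 4 to day 6 (log2 fold change -1.95, SE 0.57, adjusted p = 0.0312). This last call was lost when only the 2 groups compared were fitted, without D4PGCLC replicate 2, without D6PGCLC replicate 1 or without D6PGCLC replicate 3 (adjusted p from 0.0846 to 0.15). *Ror1*, a receptor of WNT5A, went up in EpiLCs, at 0.328, 0.921 and 0.871 CPM in ESCs, 13.2, 10.2 and 11.0 in EpiLCs, 2.05, 1.51 and 1.53 on day 2 of PGCLC induction, 0.819, 1.51 and 0.516 on day 4 and 0.998, 0.396 and 0.624 on day 6. The rise was 16.2-fold (log2 fold change 4.02, SE 0.41, adjusted p = 1.18e-07).

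*Porcn*, the acyltransferase that attaches the lipid to WNT ligands, had the largest rise of these 61 genes into D2PGCLCs. It measured 12.2, 12.7 and 13.3 CPM in ESCs, 4.97, 6.31 and 6.57 in EpiLCs, 79.2, 81.1 and 69.4 on day 2 of PGCLC induction, 64.6, 80.1 and 66.7 on day 4 and 37.9, 39.9 and 32.7 on day 6. D2PGCLCs were 12.8-fold above EpiLCs (log2 fold change 3.68, SE 0.13, adjusted p = 1.22e-13), with no overlap of groups, and D6PGCLCs below D2PGCLCs (log2 fold change -1.05, SE 0.11, adjusted p = 1.3e-06). The latter call was lost without D6PGCLC replicate 3 (log2 fold change -0.98). The homeobox gene *Msx1*, a target of both BMP and WNT, had 79 to 109 counts per EpiLC sample and 0, 2 and 0 in D2PGCLCs, a ratio of 159 (95% counting interval 43.6 to 1319.8). *Sp8*, a relative of *Sp5*, had 15 to 41 counts per EpiLC sample and 1, 0 and 1 in D2PGCLCs, a ratio of 40.3 (interval 10.8 to 339). *Myc*, a cell growth factor regulated by WNT among many other signals, measured 23.5, 22.1 and 20.7 CPM in ESCs, 39.9, 37.0 and 32.7 in EpiLCs, 15.2, 14.1 and 14.1 on day 2 of PGCLC induction, 5.67, 9.46 and 4.84 on day 4 and 0.920, 3.99 and 1.39 on day 6. It fell from day 2 to day 4 (log2 fold change -1.12, SE 0.31, adjusted p = 0.0236) and from day 4 to day 6 (log2 fold change -1.63, SE 0.34, adjusted p = 0.00426), with replicate 2 highest on the last 2 days. The earlier call was lost without D2PGCLC replicate 1, without D2PGCLC replicate 3, without D4PGCLC replicate 1 or without D4PGCLC replicate 3 (adjusted p from 0.0504 to 0.108). The later one was lost when only the 2 groups compared were fitted (adjusted p = 0.0625). *Celsr1*, a cadherin of planar polarity, and *Nkd2*, the relative of *Nkd1*, rose from day 2 to day 4. *Celsr1* went from 6.80 ± 1.19 CPM to 16.0 ± 3.15 CPM (log2 fold change 1.23, SE 0.16, adjusted p = 0.000136). *Nkd2* went from 0.972 ± 0.254 CPM to 2.11 ± 0.0941 CPM (log2 fold change 1.12, SE 0.26, adjusted p = 0.00919). The call was lost without D2PGCLC replicate 3 (log2 fold change 0.92).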

How the data were processed

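RNA-seq libraries were prepared with a directional kit from total RNA of 15 samples. Per the labels and the study's methods, reads were trimmed with Trim Galore, checked with FastQC and aligned to mm10 with STAR against an Ensembl annotation, and the authors deposited raw read counts per gene. The tool that counted reads, the versions, and whether strand was used are not given in the sources used here. All 55536 gene IDs were matched to GENCODE M21 (GRCm38) for symbols, coordinates and exon-union lengths. Groups came from the sample titles. Library totals lay between 22555021 and 42725681 counts, and a floor of 3 counts equals at most 0.133 CPM. Intervals and floors cover counting error only.

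Counts were filtered with filterByExpr (minimum count 10, leaving 18090 genes), scaled by TMM and fitted in edgeR 4.0.16 (R 4.3.3) with glmQLFit and glmQLFTest, with 1 coefficient per group over all 15 samples. P-values were adjusted by Benjamini-Hochberg over all genes tested. Alternatives were DESeq2 1.42.0, DESeq2 size factors in edgeR, no filter, only the 2 groups compared, the replicate number as a block, no fold-change cutoff, and leaving out each sample. Values in every sample are given for members called in at least 1 comparison with a group mean of at least 1 CPM, and other members by ranges and counts. Other pathway genes are named where called among the 3 largest changes of a successive comparison with a group mean of at least 1 CPM. Members never called are given by range, and *Ctnnb1* by group means. The members, lists and comparisons were chosen with earlier results of these data known. Promoter sequences are those of RefSeq (GRCm38). Exons of 11 members overlap an antisense gene, and those of *Ctnnb1* also *Mir7090* on the same strand.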

Additional observations from a re-analysis of the deposited data

How the results depend on the processing

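Of 92 calls among the members, 91 kept their direction and stayed past the threshold with DESeq2, 92 with DESeq2 size factors, 87 with no filter on low counts and 80 of the 86 that could be fitted with only the 2 groups compared. The 15 fits that each left out 1 sample gave 552 pairs of a call and a fit. In 491 of these pairs the call was kept, in 61 it was not, and 0 changed sign. The counts of called members that moved by over 1.5 times were those of the late steps. D4PGCLCs against D2PGCLCs gave 5 in place of 2 with no fold-change cutoff, and 1 to 2 with 1 sample left out. D6PGCLCs against D4PGCLCs gave 2 in place of 6 with only the 2 groups compared, 11 with no fold-change cutoff, and 2 to 5 with 1 sample left out, and over all genes 371 in place of 557 with only the 2 groups. D6PGCLCs against D2PGCLCs gave 22 in place of 12 with no fold-change cutoff. Of the 61 other pathway genes tested, the same change gave 35, 11, 17, 35, 37 and 34 in place of 16, 3, 2, 11, 18 and 18 in EpiLCs against ESCs, D4PGCLCs against D2PGCLCs and D6PGCLCs against D4PGCLCs, D2PGCLCs, EpiLCs and ESCs. Without the cutoff 52.5, 11.9, 12.8, 37.7, 57.4 and 53.7% of all genes passed in these comparisons. Leaving out 1 sample gave 1 to 4 for D4PGCLCs against D2PGCLCs and 1 to 4 for D6PGCLCs against D4PGCLCs. With only the 2 groups compared, edgeR called 0 of 53 tested genes in the latter, with 22 at an unadjusted p under 0.05, and DESeq2 on all samples called 2. Why these counts moved was not tested, beyond the fewer samples or the lower bar of each fit.

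With the replicate number as a block, 89 of the 92 calls stayed past the threshold. *Cdx2* (adjusted p = 0.0505), *Dkk1* (0.0601) and *Wnt5a* (0.103) lost theirs in D6PGCLCs against EpiLCs, where the count was 13 in place of 15. The labels do not say that a number marks a shared culture or batch. Deviations from group means correlated between same-numbered samples with a mean r of 0.0703 over 30 pairs (-0.184 to 0.358). Between other samples the mean r was -0.0352 over 60 pairs. Of the 15 samples, 8 correlated best with their own number. With these values and no label tying equal numbers together, the samples were not treated as paired. A mean over all pairs cannot show whether some of the groups share a replicate effect, which was not tested. Genes under about 1 CPM are limited by depth, since the floor of 3 counts lies at up to 0.133 CPM.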
